A study of Homo sapiens with 7 samples.

Results

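Integrins, the secreted and matrix proteins they bind, and the cytoplasmic adaptors that switch them on were followed across 7 expression arrays. All came from Panc1, a long-established line of human pancreatic ductal carcinoma cells. The group held 36 named genes: 17 alpha subunits, 8 beta subunits, 7 ligands and 4 adaptors. Of these, 34 had at least 1 probe set annotated to that gene alone, out of 19775 such genes on the array. ITGB6 and VTN were read only by probe sets shared with another gene symbol and were not analysed here. For each gene, the probe set with the highest mean value stands for it below, and the other 67 probe sets of these genes were checked beside it.

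The S100P arm was made of stable Panc1 lines carrying S100P with a V5-His tag in pcDNA3.1, and S100P is a small calcium-binding protein. It held 4 arrays from 2 single-cell clones, clone 5 and clone 1, with arrays a and b for each. The vector arm carried the same plasmid backbone without S100P and held 3 arrays from 2 clones, 1 of V1 and 2 of V3. All lines were grown in DMEM with serum and harvested before confluence, and each arm rests on 2 clones. The study sought targets of S100P, in work on passage of these cells through endothelium.

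Values are RMA log2 values as deposited, so a difference of 1 is a 2-fold difference. Array medians lay between 4.51 and 4.58 and upper quartiles between 6.78 and 6.93. Arrays of one clone correlated at 0.996 to 0.998 across probe sets and arrays of different clones at 0.982 to 0.995. S100P itself, at its 1 probe set, read 5.36 and 5.45 on clone 5 and 5.80 and 5.95 on clone 1, against 4.65 on V1 and 5.65 and 6.01 on V3. The arms overlapped (log2 difference 0.27, limma adjusted p = 0.846), so this probe set did not bear out the labels, and arms are named here as labelled. Of 8 markers of ductal epithelium, 7 lay above the median of all 7 arrays, keratins 8, 18 and 19 and EPCAM among them. The exception, CDH1, fell below the median on V1. Of 6 leukocyte markers with a probe set, 0 lay above the median on all 7 arrays and 3 lay below it, PTPRC among them. Of 5 endothelial markers 1 lay above and 3 below on all 7, of 4 platelet markers 2 and 1, and of 7 fibroblast markers 2 and 4.

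Integrins are pairs of an alpha and a beta subunit that span the membrane and hold cells to the matrix or to other cells. The pair decides the ligand, and many ligands, such as fibronectin, vitronectin, osteopontin, EDIL3 and MFGE8, are recognised through an Arg-Gly-Asp motif. Talin and the kindlins (FERMT genes) bind the tail of the beta subunit and activate the receptor, and ILK ties it to actin through its partners. In carcinoma cells this system is known for its part in adhesion, migration and passage through vessel walls.

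Of the 34 genes, EDIL3 alone passed the comparison of the arms. EDIL3 is a secreted protein that binds the αV integrins formed with ITGB3 or ITGB5, and it is known to restrain leukocyte adhesion through ITGAL and ITGB2. At probe set 225275_at clone 5 read 3.38 and 3.31 and clone 1 read 3.36 and 3.51, against 6.48 on V1 and 7.53 and 7.77 on V3. The S100P-labelled arrays lay close together and below the median of every array, and all 3 vector arrays lay well above them. The S100P-labelled arrays averaged 3.39 ± 0.08 (SD, n = 4) and the vector arrays 7.26 ± 0.68 (SD, n = 3). The fitted log2 difference was -3.80 (SE 0.28), so EDIL3 was 13.9-fold lower (95% interval 8.88-fold to 21.9-fold, limma adjusted p = 0.00104). That makes 1 of 34 genes lower (2.94%), where 0.526% of all genes were called lower, and 0 of 34 higher, where 1.03% of all genes were (1.55% in either direction). With an unadjusted p under 0.05 there were 4 of 34 (11.8%), where 15.1% of all genes were.

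The values of the S100P-labelled arrays lie where RMA compresses differences, and no detection call was used, so the fold is on the scale of these values only. In bulk RNA, fewer cells with EDIL3 transcript and less transcript per cell cannot be told apart. EDIL3 had 2 further probe sets. At 207379_at it read 3.15 and 3.41 on clone 5 and 3.36 and 3.27 on clone 1, against 3.79 on V1 and 3.92 and 4.11 on V3. The arms did not overlap there either, although every array lay below its median, and the fitted log2 difference of -0.63 just missed the threshold (limma adjusted p = 0.0547). At 1558643_s_at the arrays of both arms lay between 3.03 and 3.39, with a log2 difference of -0.22 (adjusted p = 0.463).

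**Figure D1:**
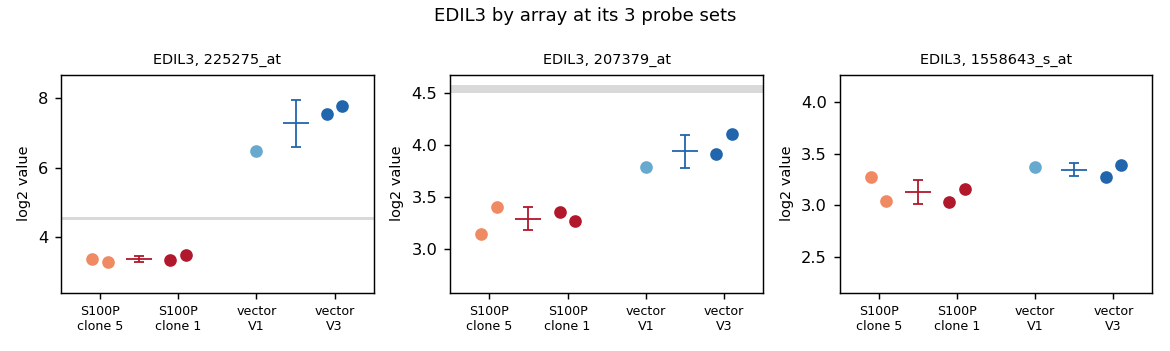
Log2 value (vertical axis) of EDIL3 on each array by clone at its 3 probe sets, with a dot for each array, a dash and bar for the mean ± SD of each arm, and a grey band for the range of array medians where it falls in view. The vertical scale differs between panels. At 225275_at the 4 S100P-labelled arrays sit at 3.31 to 3.51, below the 3 vector arrays at 6.48 to 7.77, and the gap is smaller at 207379_at and smallest at 1558643_s_at.

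The call on EDIL3 held with each of the 7 arrays left out and with each clone left out. Its log2 difference was -3.09 without clone V3 and -4.26 without V1. With 1 averaged value for each clone, 2 clones against 2, the log2 difference was -3.68 and the adjusted p was 0.241, so the call does not extend to clones taken as the replicates. Few calls were left in that setting, 8 of 54613 probe sets, against 611 with all 7 arrays.

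The receptor subunits for EDIL3, singled out after its value was seen, did not pass at their representative probe sets. The αV subunit gene ITGAV, shared by several integrins, read 10.62 and 10.80 on clone 5 and 10.85 and 10.80 on clone 1, against 10.49 on V1 and 10.70 and 10.85 on V3. The arms overlapped, and the 95% interval of the log2 difference ran from -0.17 to 0.37. ITGB5 read 11.58 to 11.69 on the S100P-labelled arrays, against 11.48 to 11.86 on the vector arrays, with an interval from -0.27 to 0.23. At these probe sets both intervals leave out a 1.5-fold change. The other ITGB5 probe sets did not read alike, and none was called. At 201124_at the log2 difference was 0.52 (95% interval -0.06 to 1.09), which takes in a 2-fold change. At 214020_x_at it was -0.20, and at 214021_x_at it was -0.28 (95% interval -0.53 to -0.03, limma adjusted p = 0.351) with arms that did not overlap. ITGB3 was less certain, with an interval from -0.94 to 0.55, and its vector clones stood apart.

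MFGE8, the closest relative of EDIL3 in domain structure and a bridge between αV integrins and dying cells, lay above the upper quartile of all 7 arrays. It read 10.96 and 11.15 on clone 5 and 11.08 and 11.25 on clone 1, against 10.63 on V1 and 10.99 and 11.08 on V3. The arms overlapped and the log2 difference was 0.23 (95% interval -0.08 to 0.55, adjusted p = 0.591). The other 4 ligands were below the median of all 7 arrays at their representative probe sets. These were FN1 (fibronectin, 4.13 to 4.40), NPNT (nephronectin, the ligand of the ITGA8 integrin, 2.90 to 3.19), SPP1 (osteopontin, 2.64 to 2.93) and TNC (tenascin-C, 2.77 to 3.05). Their arms overlapped and their log2 differences ran from -0.07 to 0.00, at values where RMA compresses differences.

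**Figure D2:**
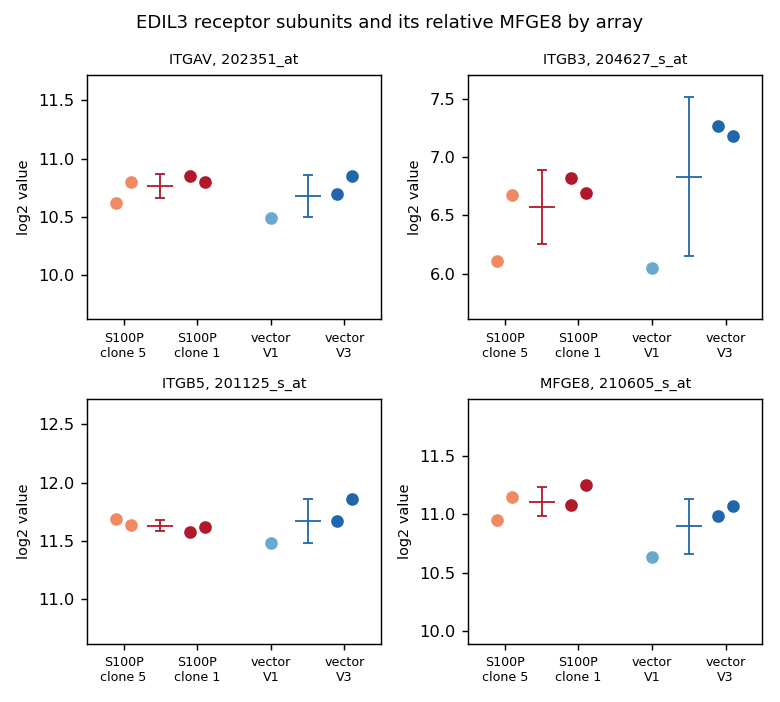
Log2 value (vertical axis) on each array by clone for ITGAV, ITGB3, ITGB5 and MFGE8 at their representative probe sets, with a dot for each array and a dash and bar for the mean ± SD of each arm. The vertical scale differs between panels. The 2 arms overlap in all 4 genes, and V1 is the lowest array in each.

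Among the 17 alpha subunits, 6 lay above the upper quartile of all 7 arrays: ITGA2 (collagen receptor), ITGA3 and ITGA6 (laminin receptors), ITGA5 (fibronectin receptor), ITGAE (which binds E-cadherin in partnership with ITGB7) and ITGAV. ITGA1, ITGA4, ITGA9 and ITGAX, known from collagen, VCAM1, tenascin and complement binding, lay below the median of all 7 arrays. The other 7, ITGA7, ITGA8, ITGA10, ITGA11, ITGAL, ITGAM and ITGA2B, lay between the median and the upper quartile on every array at their representative probe sets. ITGA10 had no other. The further probe sets of the rest lay below the median of all 7 arrays, except 216956_s_at of ITGA2B, above it on 4. They averaged 2.92 for ITGAL, 3.67 for ITGAM, and 3.36 and 2.82 at those of ITGA2B below the median. ITGAL, ITGAM and ITGA2B are best known from leukocytes and platelets. At their representative probe sets they read 4.95 to 5.21, 5.00 to 5.47 and 4.89 to 5.01 on the S100P-labelled arrays, against 5.02 to 5.10, 5.12 to 5.30 and 4.88 to 4.89 on the vector arrays. Whether such values stand above background was not tested. None of the 17 passed the comparison of the arms, and their log2 differences ran from -0.38 to 0.38.

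The alpha subunits of largest difference were ITGA5 and ITGA3. ITGA5 read 8.64 and 8.93 on clone 5 and 8.83 and 8.90 on clone 1, against 8.28 on V1 and 8.48 and 8.64 on V3. Its lowest S100P-labelled array was just above its highest vector array, and the log2 difference was 0.38 (SE 0.13, limma adjusted p = 0.276). ITGA3 read 9.06 and 9.35 on clone 5 and 9.67 and 9.72 on clone 1, against 10.06 on V1 and 9.63 and 9.72 on V3. The low arrays were those of clone 5, while clone 1 overlapped V3, and the log2 difference was -0.38 (SE 0.19, adjusted p = 0.490).

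ITGA6 was the other alpha subunit whose arms did not overlap at the representative probe set. It read 9.29 and 9.22 on clone 5 and 9.15 and 9.21 on clone 1, against 9.05 on V1 and 8.92 and 9.14 on V3. The lowest S100P-labelled array and the highest vector array almost touched, and the 95% interval of the log2 difference ran from -0.04 to 0.40. At its other probe set, 215177_s_at, the arms overlapped, with 8.70 to 8.89 on the S100P-labelled arrays, against 8.82 to 8.93 on the vector arrays, and the log2 difference was -0.06. ITGAE read 9.66 to 9.80 on the S100P-labelled arrays, against 9.78 to 10.04 on the vector arrays, with the arms overlapping at the edge and a log2 difference of -0.18 (limma adjusted p = 0.529).

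Of the 7 beta subunits, ITGB1, the common partner of most alpha subunits, and ITGB5 lay above the upper quartile of all 7 arrays. ITGB1 held the narrowest range of these 7, from 12.71 to 12.80 on the S100P-labelled arrays, against 12.60 to 12.71 on the vector arrays, with a 95% interval of the log2 difference from -0.07 to 0.31. Of its 6 other probe sets, 2 averaged 11.81 and 11.75 over the arrays and 4 averaged between 2.54 and 2.98, so they do not read alike. ITGB4, the partner of ITGA6 in hemidesmosomes, read 6.18 to 6.59 on the S100P-labelled arrays and 6.02 to 6.35 on the vector arrays. ITGB8, known for activating latent TGF-beta, lay below the median of all 7 arrays. ITGB7 read the identical value of 6.0 on all 4 S100P-labelled arrays, against 5.88 to 6.19 on the vector arrays.

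The beta subunits of largest arm difference were ITGB2 and ITGB3. ITGB2, the partner of ITGAL, ITGAM and ITGAX on leukocytes, read 4.60 and 4.60 on clone 5 and 4.42 and 4.36 on clone 1, against 4.79 on V1 and 4.71 and 4.65 on V3. The arms did not overlap, but by a small margin at a level near the array medians, and the log2 difference was -0.23 (SE 0.10, limma adjusted p = 0.415). At its other 2 probe sets the log2 difference was 0.13 and 0.09. ITGB3 read 6.10 to 6.82 on the S100P-labelled arrays, against 6.05 to 7.27 on the vector arrays, which enclosed them. Its log2 difference was -0.19 (SE 0.33, adjusted p = 0.903), and without clone V3 it was 0.52. Of 8 leukocyte markers 6 had a probe set, and their mean log2 value per array was 3.83 to 3.99 in the S100P-labelled arm, against 3.88 to 3.93 in the vector arm. PTPRC, LYZ and LCP2 among them lay below the median of all 7 arrays. Their part in the ITGB2 values was not tested.

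Of the adaptors, FERMT2 (kindlin-2), TLN1 (talin) and ILK lay above the upper quartile of all 7 arrays and FERMT1 (kindlin-1, the epithelial form) above the median. FERMT1 had the second largest arm difference of the 34 genes. It read 4.98 and 4.92 on clone 5 and 5.36 and 5.10 on clone 1, against 5.88 on V1 and 5.42 and 5.96 on V3. The arms did not overlap, and the closest pair were clone 1 array a and V3 array a. The log2 difference was -0.68 (SE 0.18, limma adjusted p = 0.163), and it was -0.86 (adjusted p = 0.0584) at probe set 60474_at, with neither called. At its other 2 probe sets it was -0.16 and 0.07.

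TLN1 read 7.08 and 7.72 on clone 5 and 7.52 and 7.62 on clone 1, against 8.09 on V1 and 7.72 and 7.77 on V3. Arrays a and b of clone 5 were 0.65 apart, the widest gap between arrays of a clone among these genes, and the log2 difference of the arms was -0.39 (SE 0.20, adjusted p = 0.501). FERMT2 read 8.94 to 9.65 on the S100P-labelled arrays, against 9.09 to 9.39 on the vector arrays, and ILK read 10.86 to 10.96 on the S100P-labelled arrays, against 10.75 to 11.18 on the vector arrays. Their log2 differences were 0.10 and -0.04, with overlapping arms.

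**Figure D3:**
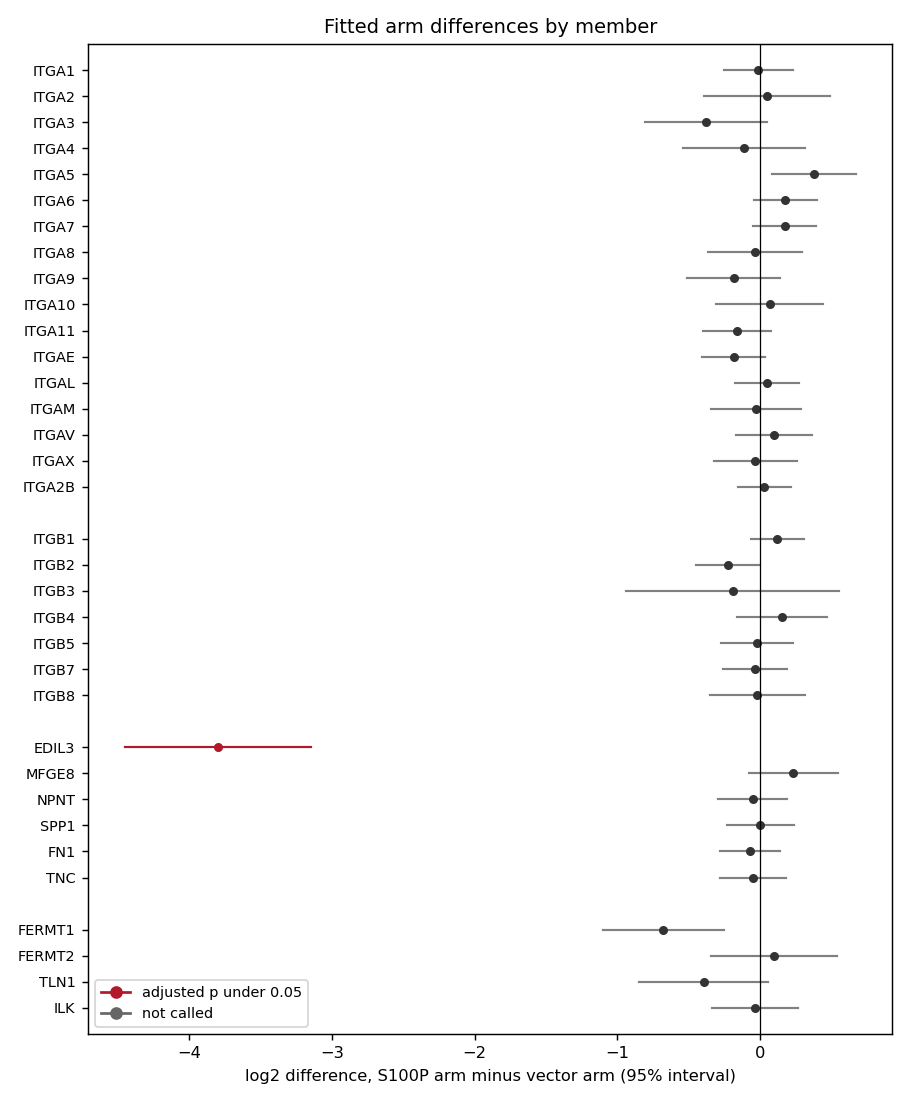
Fitted log2 difference (horizontal axis), S100P arm minus vector arm, for each of the 34 genes at its representative probe set, as a dot with its 95% interval, ordered from alpha subunits at the top through beta subunits and ligands to adaptors. EDIL3 stands apart at -3.80, FERMT1 is next at -0.68, and the other 32 intervals lie between -1 and 1.

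Taking the 34 genes as a list, the median log2 difference was -0.03, against 0.00 over all 19775 genes, and the median size was 0.10, against 0.12. The arms did not overlap in 5 genes, ITGA5 and ITGA6 higher and ITGB2, EDIL3 and FERMT1 lower, all named here after their values were seen. That is 14.7% of the 34, where 14.2% of all genes had arms that did not overlap (8.67% higher and 5.51% lower), so the count is near the background. Of the 67 other probe sets 0 were called by limma between the arms, where 1.12% of all probe sets were. At the representative probe sets, the 95% interval of the arm difference lay within 2-fold either way in 32 of the 34 genes. Other probe sets could be wider, as at 205032_at of ITGA2, where the log2 difference was 0.70 (95% interval -0.24 to 1.65). The log2 value of the 3' control probe set of ACTB exceeded that of the 5' one, a sign of RNA quality, by 0.27 to 0.53 on the S100P-labelled arrays and 0.18 to 0.32 on the vector arrays. The high ACTB arrays were those of clone 1, at 0.53 and 0.44, while clone 5, at 0.29 and 0.27, lay within the vector range. For GAPDH the excess was 0.06 to 0.08 on the S100P-labelled arrays and 0.01 to 0.14 on the vector arrays. Their part in any difference between arms or between clones was not tested.

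**Figure D4:**
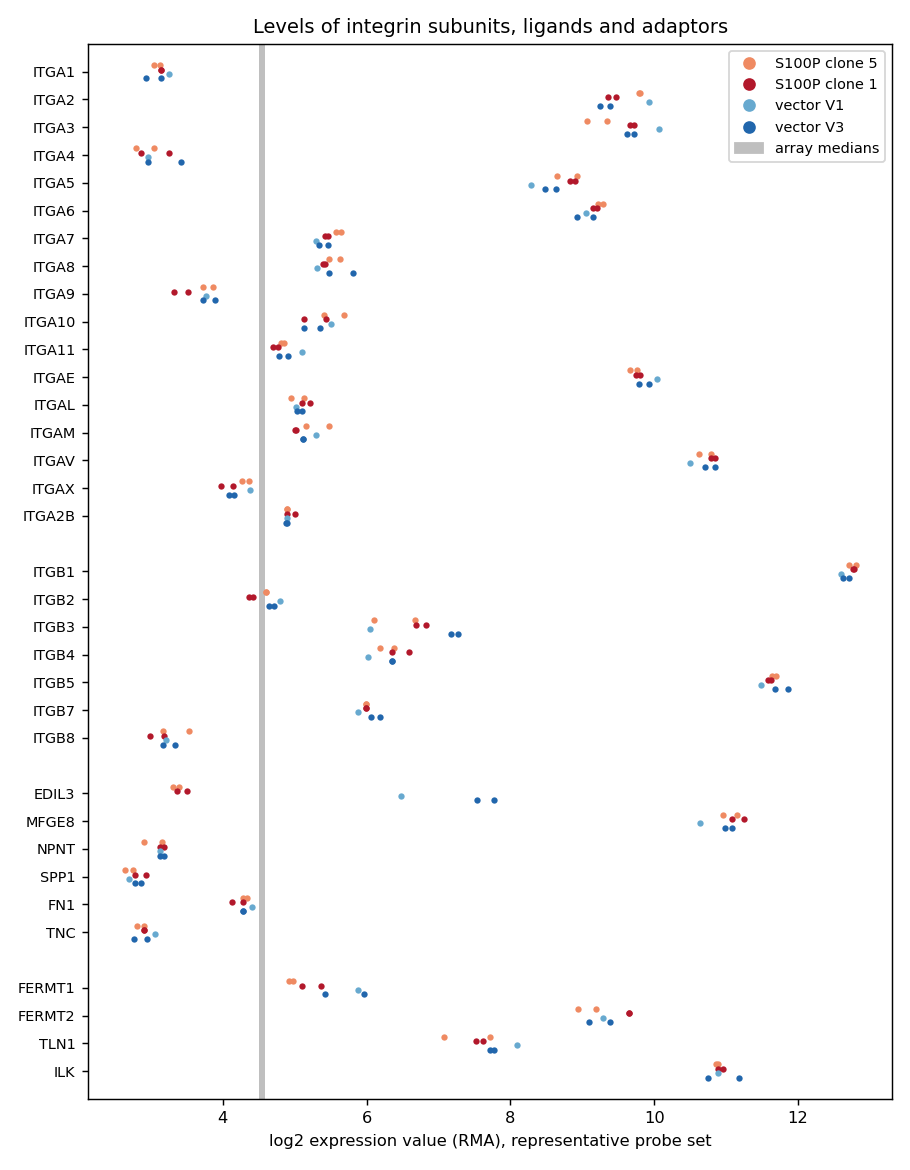
Log2 value (horizontal axis) of the representative probe set of each of the 34 genes, with a dot for each array coloured by clone and the range of array medians as a grey band. Probe sets differ in how brightly they read, so rows are not to be ranked against each other. The dots of EDIL3 split into 4 S100P-labelled arrays left of the band and 3 vector arrays right of it, while in 29 of the 34 genes all 7 arrays lie within 1 of each other.

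Between the vector clones, V1 minus V3, 3 of the 34 genes passed (8.82%), ITGA2 higher and ITGB3 and EDIL3 lower in V1. Of all genes 7.72% passed (2.64% higher and 5.08% lower), so this count too is near the background. Of the 67 other probe sets 2 were called, where 5.85% of all probe sets were. V1 is 1 array with another label prefix than the rest, and its clone and any separate handling cannot be told apart. EDIL3 was lower in V1 than in V3, with a log2 difference of -1.17 (SE 0.14, limma adjusted p = 0.00660), yet its V1 value was still above every S100P-labelled array. These 3 calls rest on all 6 arrays of clone 5, clone 1 and V3: without 1 of them limma had 2 residual degrees of freedom, and the adjusted p was over 0.05 in every such case but ITGB3 without either array of clone 5. Without such an array it ran from 0.0519 to 0.0849 for EDIL3 and from 0.0747 to 0.122 for ITGA2, and for ITGB3 it was 0.147 to 0.181 without an array of clone 1 or V3. The loss was not particular to these genes. Over all 54613 probe sets, limma called 0 without an array of clone 1 or V3 and 909 without one of clone 5, against 3195 with all arrays.

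ITGB3, which pairs with ITGAV and in platelets with ITGA2B, read 6.05 on V1, against 7.27 and 7.18 on V3. The S100P-labelled arrays fell between, with 6.10 and 6.67 on clone 5 and 6.82 and 6.69 on clone 1. The log2 difference of V1 minus V3 was -1.17 (SE 0.22, limma adjusted p = 0.0267). The difference was not shared by the other 6 ITGB3 probe sets, where it ran from -0.40 to 0.11 and none was called. At 204626_s_at, for instance, V1 read 6.26, against 6.27 and 6.30 on V3.

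ITGA2 was higher in V1, with 9.93 on V1, against 9.24 and 9.38 on V3 at probe set 227314_at, a log2 difference of 0.62 (SE 0.12, limma adjusted p = 0.0279). Its other probe set, 205032_at, moved the same way and further, with 9.79 on V1, against 8.38 and 7.90 on V3 and a log2 difference of 1.65 (SE 0.22, adjusted p = 0.0100). At that probe set V3 alone stood low, since clone 5 read 9.78 and 9.41 and clone 1 read 9.36 and 9.40. ITGB5 was called at 1 of its other probe sets, 201124_at, named after its value was seen. It read 7.84 on V1, against 8.70 and 8.82 on V3, a log2 difference of -0.92 (SE 0.11, adjusted p = 0.0069), while its representative probe set differed by -0.28 and was not called (adjusted p = 0.252).

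**Figure D5:**
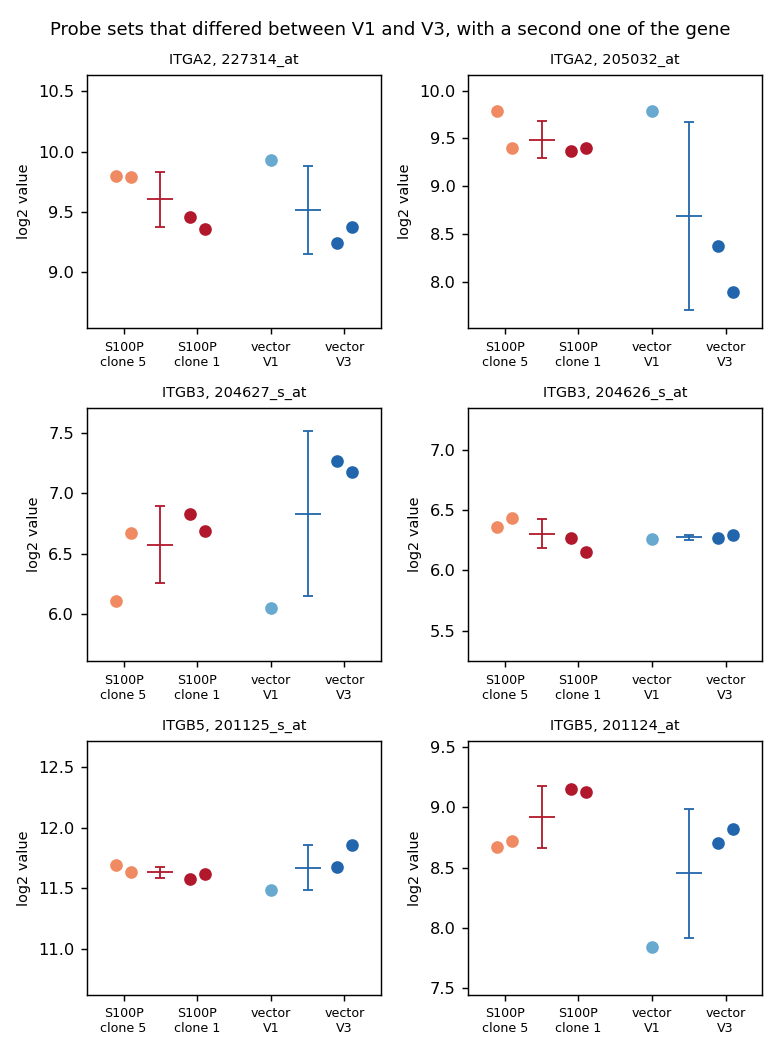
Log2 value (vertical axis) on each array by clone for the 2 brightest probe sets of ITGA2, ITGB3 and ITGB5, with a dot for each array and a dash and bar for the mean ± SD of each arm. The vertical scale differs between panels. V1 lies above V3 in both ITGA2 panels, and below V3 in the ITGB3 and ITGB5 panels, by little in the second ITGB3 panel and by more in the second ITGB5 panel than in the first.

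Between the S100P-labelled clones, clone 5 minus clone 1, 0 of the 34 genes passed the limma test, where 3.02% of all genes did (0.673% higher and 2.35% lower). None of the 67 other probe sets passed either, where 2.19% of all probe sets did. With an unadjusted p under 0.05 there were 7 of 34 (20.6%), where 18.1% of all genes were. The log2 differences ran from -0.58 to 0.39. Those at the ends were FERMT2, with 8.94 and 9.19 on clone 5, against 9.65 and 9.65 on clone 1 (adjusted p = 0.0803), and ITGA2, with 9.80 and 9.79 on clone 5, against 9.46 and 9.36 on clone 1 (adjusted p = 0.101). EDIL3 differed by -0.09 (95% interval -0.35 to 0.18).

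Genes around the integrins were read from 3 further lists. Of 36 focal adhesion adaptors and kinases 33 had a probe set, of which limma called 0 higher and 1 lower against the vector arm, where 1.03% of all genes were higher and 0.526% lower. This was FBLIM1 (migfilin, which links filamin and kindlin-2 to adhesions), with clone means of 5.55 on clone 5 and 5.57 on clone 1, against 6.51 on V1 and 6.20 on V3. The log2 difference was -0.76 (SE 0.13, limma adjusted p = 0.0391), while its other 3 probe sets differed by -0.20 to -0.47 without a call. Of 34 laminins and other integrin ligands 32 had a probe set, of which 1 was higher and 0 lower, against the same shares of all genes. This was the laminin chain gene LAMC3, with 6.57 on clone 5 and 6.60 on clone 1, against 5.73 on V1 and 5.75 on V3. The log2 difference was 0.84 (SE 0.12, adjusted p = 0.0208), and at its other probe set it was -0.17 and not called. Of 17 membrane partners, such as tetraspanins, syndecans and CD44, 0 were called in either direction. The list medians of the arm difference were 0.00, -0.01 and 0.03, against 0.00 over all genes. FBLIM1 passed in 7 and LAMC3 in 11 of 16 other settings, and both were lost with the arrays of each clone averaged (adjusted p = 0.366 and 0.218). That averaging left 8 of 54613 probe sets called, against 611 in the main fit. With 1 array left out, FBLIM1 was lost for any array of clone 5 or clone 1 and for V3 array b (adjusted p of 0.0685 to 0.155). LAMC3 was lost without clone 5 array b or either array of V3 (0.0805 to 0.109).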

How the data were processed

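Total RNA was hybridised to Affymetrix HG-U133 Plus 2.0 arrays, per the labels. RMA gave the deposited log2 values, per the submitters' processing notes, which name no version and do not tell if the 7 arrays went through it as 1 set. The log2 scale was read from the range of the values. The table held 54675 probe sets; 62 controls were left out and 54613 tested. Genes were named from the platform annotation where a probe set had 1 symbol (41091 probe sets). Arms were compared with limma 3.58.1 in R 4.3.3, with group as fixed effect and clone as random block (duplicateCorrelation, correlation 0.287 for every probe set, statmod 1.5.0). Clones were compared in a second limma fit with 4 clones as fixed effects and 3 residual degrees of freedom; V1 is assumed to vary like the others. All p-values are two-sided and were adjusted over all probe sets tested by the Benjamini-Hochberg method, with a threshold of 0.05. Both fits were tested on simulated data.

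Fitted differences were printed for genes that passed, for the 2 of largest arm difference in a role where none passed, and for up to 3 genes called in each surrounding list; other genes given one were chosen after their values were seen. The genes and lists were chosen with earlier results of these data known. Fitted differences weight arrays by the block correlation and differ slightly from differences of means. Nothing in the labels tells if a and b are separate cultures, and the p-values reflect only the spread among these arrays and clones, part of which may be technical. The number of arrays limits the precision. Alternatives were other normalization, filter, variance and block settings, another choice of probe set, and leaving out arrays or clones. Figures used matplotlib 3.10.9. Protein sequences were not used here.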

Additional observations from a re-analysis of the deposited data

Results flagged for a closer look

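On the 4 S100P-labelled arrays, the array farthest from the others was tested in 33 genes, since ITGB7 had no spread there, and 2 were singled out where chance gives about 1 in 20. ITGA2B read 5.01 on clone 1 array b, against 4.89 on the other 3 arrays. TNC read 2.80 on clone 5 array a, against 2.91 on the other 3. In both genes the other 3 arrays held the identical value, so a gap of 0.12 or 0.11 was enough.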

How the results depend on the processing

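All alternatives tested the 34 genes, except that 22 of them were left with a mean log2 value of at least 5. Between the arms, 1 gene was called, EDIL3, in all alternatives except with the arrays of each clone averaged first, where 0 were. With that averaging 8 of 54613 probe sets were called, against 611 in the main fit. EDIL3 had a mean log2 value of 5.05, from 3.39 on the S100P-labelled arrays and 7.26 on the vector arrays. It thus passed the filter only through its vector arrays, so its call there is no separate check. Its probe set of highest SD was also the representative one, so that setting repeated the main fit for EDIL3. The log2 difference of EDIL3 ran from -4.26 to -3.09 over 16 alternatives and its adjusted p from 3.72e-06 to 0.241, with only the averaged arrays over 0.05. With any clone left out, V1 among them, a single clone remains in its arm, so spread between clones of that arm cannot enter. Between clone 5 and clone 1, the count of 0 became 1 (ITGA2) with a further quantile normalization, 1 (FERMT2) with each array centred on its median, 3 of 22 (FERMT2, ITGA2 and ITGA3) with a mean log2 value of at least 5, and 2 (FERMT2 and ITGA3) with trend and robust variances. Calls over all probe sets rose too, from 1195 of 54613 to 1609, 1813, 2653 of 24041 and 1714 in that order. The count was 0 without any single array, where 0 of all probe sets were called, or 1195 without V1. The cause was not tested, except that the filter tests fewer probe sets. Between V1 and V3 the count was 0 to 1 without any one array, where limma has 2 residual degrees of freedom, and 3 or 4 otherwise. It cannot be had without V1. Over all 54613 probe sets, 0 or 909 were called without any one array, against 3195 in the main fit. Among the genes recomputed here, those given a fitted difference under the naming rule, signs turned, all without a call, for ITGB3 between the arms without clone V3 (0.52) and at other probe sets (0.061, 0.032, 0.14 and 0.058), and at other probe sets for ITGB2 (0.13, also the one of highest SD, and 0.092), FERMT1 (0.067), TLN1 (0.14) and LAMC3 (-0.17). Between V1 and V3 they turned at other probe sets of ITGB3 (0.11) and EDIL3 (0.039). No paired analysis was possible because the letters a and b mark arrays within a clone. RMA compresses low values, which limits the 9 genes below every array's median.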

Other observations

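In the surrounding lists, the clones differed in genes named here after their values were seen. Between clone 5 and clone 1, 3 of the 32 laminins and other ligands were lower in clone 5, CCN1, CCN2 and LTBP1, and 2 of the 17 membrane partners, EGFR and SLC3A2, where 2.35% of all genes were lower. None of the 3 lists had a gene called higher, where 0.673% of all genes were. CCN2, a matricellular protein that binds integrins, averaged 10.76 on clone 5, against 12.28 on clone 1, a log2 difference of -1.51 (SE 0.09, limma adjusted p = 0.00115). Its relative CCN1 averaged 12.10 on clone 5, against 12.94 on clone 1, a log2 difference of -0.84 (SE 0.10, adjusted p = 0.0102), and at its other probe set the difference was -1.30, also called. Neither passed with any 1 array of clone 5, clone 1 or V3 left out, where the adjusted p ran from 0.0664 to 0.332, while the log2 differences stayed between -1.55 and -0.78. In each of those fits limma called 0 of 54613 probe sets, against 1195 with all arrays, so the loss was not particular to these genes.

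Between V1 and V3, 4 of the 32 ligands were lower in V1, CDH1, L1CAM, TGFBI and ICAM1, and 2 of the 17 membrane partners were higher, EGFR and SDC1, where 5.08% of all genes were lower and 2.64% higher. CDH1 (E-cadherin, the ligand of the ITGAE integrin) read 3.83 on V1 and averaged 6.26 on V3, a log2 difference of -2.43 (SE 0.13, limma adjusted p = 6.78e-04), while ITGAE read 10.04 on V1, against 9.78 and 9.92 on V3. At the other CDH1 probe set the difference was -0.43 and not called. CDH1 passed in 6 of 10 alternatives and was lost without an array of clone 1 or V3, with an adjusted p of 0.0547 to 0.0567. Without such an array 0 of 54613 probe sets were called, against 3195 with all arrays.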
